A study of Mus musculus with 6 samples.

Results

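The genes examined here encode the perineuronal matrix: the chondroitin sulfate proteoglycans Vcan, Ncan, Bcan and Acan, the link proteins Hapln1 and Hapln4, the tenascins Tnc and Tnr, and the receptor Ptprz1. Their chromatin was followed with an assay for transposase-accessible chromatin (ATAC-seq) in astrocyte nuclei of mouse primary visual cortex (V1) at postnatal day 21. A peak belonged to a gene when its summit, the base of highest signal, lay in the gene body or within 100 kb of it in GENCODE (build mm10). The windows of the 9 genes held 2126 of the 1116429 peaks in 6 lists, and these fell into 311 of 160877 consensus sites, each reaching 200 bp to either side of a summit. Vcan and Hapln1 are neighbours on chromosome 13, and Ncan and Hapln4 on chromosome 8, so that 57 sites lie in a pair of windows (21 and 36).

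All mice were GRfl/fl, that is, they carried loxP-flanked alleles of the glucocorticoid receptor (GR) gene Nr3c1, in both conditions. Between postnatal days 0 and 1 they received an adeno-associated virus (AAV2/5) with the GfaABC1D promoter, an astrocyte promoter derived from the GFAP gene, and a 4x6T element. Under this promoter the GR-Con virus carried ΔCre, an inactive recombinase, and the GR-KO virus carried Cre, in both cases joined through T2A to EGFP-KASH. EGFP-KASH labels the nuclear envelope, by which 50000 GFP+ and DRAQ5+ (DNA dye) events were sorted per library. Each condition had 3 libraries, each pooled from 3 to 4 mice, so that the spread between libraries is that between pools.

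In brain matrix, proteoglycans of the lectican family (Vcan, Ncan, Bcan and Acan) bind hyaluronan at one end, where link proteins hold the bond, and tenascins at the other. Condensed on the surface of parvalbumin interneurons, this lattice forms perineuronal nets, whose appearance accompanies the end of plasticity in the developing cortex; Tnc and the large Vcan isoforms are typical of the looser matrix of the immature brain. GR is a hormone-activated transcription factor that binds DNA as a dimer, at a pair of short inverted motifs spaced by any 3 bases.

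Windows of 151 bp from the 8 sites that passed the test below by −log10 p rank are shown here because the values refer to them. They are reference sequence of mm10, read 5′ to 3′. Capitals mark the letters of a GR element (GNACANNNTGTNC), an AP-1 element (TGANTCA) or the 6-mer ACTGTA, each searched on both strands (TACAGT is the latter on the other strand). For Tnc, which is transcribed from the minus strand, only bases before the gene's annotated start are given.
Hapln1 intron, chr13:89542348-89542498, plus strand: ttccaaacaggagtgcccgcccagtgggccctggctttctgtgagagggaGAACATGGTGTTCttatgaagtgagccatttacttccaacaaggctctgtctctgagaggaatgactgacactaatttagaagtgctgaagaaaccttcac
Ptprz1 intron, chr6:22919671-22919821, plus strand: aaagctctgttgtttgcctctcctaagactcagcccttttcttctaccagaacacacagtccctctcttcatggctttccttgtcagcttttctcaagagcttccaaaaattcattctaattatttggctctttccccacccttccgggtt
Bcan upstream, chr3:88030728-88030878, plus strand: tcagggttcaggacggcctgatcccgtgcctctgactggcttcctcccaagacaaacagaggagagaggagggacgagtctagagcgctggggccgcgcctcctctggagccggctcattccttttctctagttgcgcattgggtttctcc
Tnc upstream, chr4:64047016-64047166, plus strand: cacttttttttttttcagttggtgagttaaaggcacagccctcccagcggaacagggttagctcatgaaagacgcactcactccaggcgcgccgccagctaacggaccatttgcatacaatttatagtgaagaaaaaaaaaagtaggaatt
Tnr upstream, chr1:159519307-159519457, plus strand: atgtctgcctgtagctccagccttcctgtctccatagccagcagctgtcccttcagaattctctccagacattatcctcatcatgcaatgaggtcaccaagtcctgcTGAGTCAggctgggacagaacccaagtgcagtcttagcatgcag
Tnr intron, chr1:159551179-159551329, plus strand: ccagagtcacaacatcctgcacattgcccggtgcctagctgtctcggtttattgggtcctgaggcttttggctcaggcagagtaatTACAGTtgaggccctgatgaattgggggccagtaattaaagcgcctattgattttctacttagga
Tnr distal intron, chr1:159865718-159865868, plus strand: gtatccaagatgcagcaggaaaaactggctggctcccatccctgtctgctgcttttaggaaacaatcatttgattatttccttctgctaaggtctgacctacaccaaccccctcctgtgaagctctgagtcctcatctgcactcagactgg
Ptprz1 upstream, chr6:22833753-22833903, plus strand: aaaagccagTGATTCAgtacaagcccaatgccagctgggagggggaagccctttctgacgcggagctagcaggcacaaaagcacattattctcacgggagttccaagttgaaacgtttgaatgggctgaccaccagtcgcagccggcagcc

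The Hapln1 intron held the sole perfect GR element at a site that passed the test, GAACATGGTGTTC at chr13:89542398-89542410. Over the whole site, a GR element occurred in 2 of the 311 sites (0.643%) and in 1.01% of all sites, and the AP-1 letters in 12.9% against 11.4%. ACTGTA, taken from earlier results on these data, was found in 21.2% against 16.0%, and the element of nuclear factor I (NFI; TTGGC and GCCAA spaced by any 5 bases) in 1 site, that is 0.322% against 0.0845%. The second GR element lay in a Hapln1 intron 44.7 kb from the start (chr13:89584289-89584689), where the fold was 5.95, 5.17 and 5.53 in GR-Con and 7.70, 5.90 and 6.64 in GR-KO and did not pass (adjusted p = 0.446 in limma). A match to these letters does not show that a factor was bound.

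The lists held 179462 to 198929 peaks per library, each with a fold (signal over the local background of its own library) and a −log10 p from the peak caller, the lowest of which was 2.00 in each library. Read counts were not used, and the depth is unknown here. In the gene body of Nr3c1 itself (17 sites), the site at chr18:39428181-39428581 had folds of 17.4, 17.4 and 14.3 in GR-Con 1 to 3 and of 6.68, 4.73 and 6.36 in GR-KO 1 to 3 (adjusted p = 0.0240 by fold rank in limma). A second site there, at chr18:39460821-39461221, had no peak in GR-Con and folds of 6.24, 4.76 and 6.39 in GR-KO. The position of these sites relative to the floxed exon was not examined. Markers of 5 cell classes were checked within 10 kb of each gene. The strongest site of an astrocyte marker (8 genes, among them Aqp4, Aldh1l1 and Slc1a3) lay at a median percentile of 94.8 to 96.6 of the fold within a list; this was 94.8 to 95.3 in GR-Con and 96.6 in each GR-KO library. It was 87.5 to 89.2 for neurons, 88.1 to 91.2 for the oligodendrocyte lineage, 79.2 to 86.0 for endothelial cells and 67.1 to 70.5 for microglia. Of the 6 neuronal markers, Slc17a7 (97.9 to 98.8) was highest and Gad2 (42.0 to 59.5) lowest. Among astrocyte markers, Aldh1l1 lay at 99.2 to 99.5 and Gja1 at 89.7 to 91.8. Cx3cr1 (97.5 to 98.3) and Tmem119 (27.1 to 65.0) stood far apart among microglial markers. Mog lay at 96.6 to 97.3 and Sox10 at 85.6 to 91.2, Pecam1 at 94.1 to 97.0 and Cldn5 at 51.8 to 65.3. Single genes of the other classes thus lay as high as astrocyte markers. By −log10 p rank, 1 of 196 astrocyte marker sites fell (0.510%, against 0.835% of all sites) and 3 rose (1.53%, against 0.76%) in GR-KO; by fold rank 0 passed. Of the 197 sites of the other classes, 0 passed in limma by either rank; 22 had an unadjusted p under 0.05 by −log10 p rank (11.2%, against 13.4% of all sites) and 19 by fold rank (9.64%, against 12.1%). The part of other cell types in the results was not tested.

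To compare conditions without a shared scale, each site was ranked within its library by fold and, separately, by −log10 p, and the ranks were converted to normal scores and tested with limma over all 160877 sites (Benjamini-Hochberg adjusted p under 0.05). A difference below is GR-KO minus GR-Con on that score. By −log10 p rank, 3 of 311 sites fell (0.965%, against a background of 0.835% of all sites) and 5 rose (1.61%, against 0.76%). By fold rank, 1 site fell (0.322%, against 0.127%) and 0 rose (against 0.0609%), and at an unadjusted p under 0.05, 18 were higher (5.79%, against 6.12% of all sites) and 16 lower (5.14%, against 6.02%). The sites that fell were in Hapln1 (where no GR-KO library had a peak), in Ptprz1 and upstream of Bcan, and those that rose were at Tnc, Tnr (3 sites) and upstream of Ptprz1. Of the 101 sites of Vcan, Ncan, Acan and Hapln4, 0 passed in limma by either rank, and 11 by −log10 p rank (10.9%, against 13.4% of all sites) and 9 by fold rank (8.91%, against 12.1%) had an unadjusted p under 0.05. In pooled nuclei, fewer nuclei with an open site and less accessibility per nucleus cannot be told apart.

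A peak was present in all GR-Con and no GR-KO library at 3 sites (0.965%, against 1.15% of all sites) and in all GR-KO and no GR-Con library at 1 (0.322%, against 0.618%). Every GR-KO library lay above every GR-Con library at 48 sites by fold rank (15.4%, against 11.6%) and at 45 by −log10 p rank (14.5%, against 11%), and below at 17 (5.47%, against 7.57%) and 21 (6.75%, against 8.45%). The median difference was 0.05 by either rank, against 0.02 by fold and 0.01 by −log10 p over all sites. Each site's difference is in the plot by gene. Shares of such separated sites are given below for Tnc, Tnr, Acan and Hapln1. For the other genes, by −log10 p rank, the share above was 10% for Bcan, 8.47% for Ptprz1, 7.14% for Ncan, 6.90% for Vcan and 5.56% for Hapln4 (11% of all sites). The share below was 2.5%, 10.2%, 2.38%, 10.3% and 2.78% in the same order (8.45% of all sites). Sites with a peak in all 6 libraries made up 59.8% of the 311 and 62.0% of all sites.

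**Figure D1:**
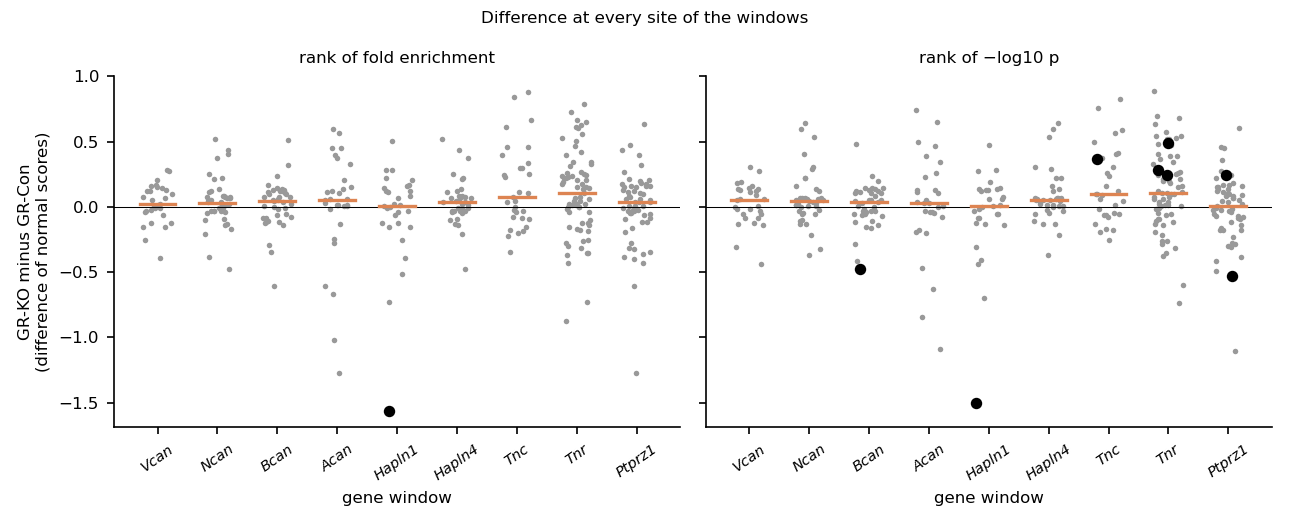
Difference of normal scores (GR-KO minus GR-Con, y axis) at each consensus site of each gene window (x axis), by the rank of fold (left) and of −log10 p (right). Black points are sites at an adjusted p under 0.05 in limma (1 by fold, 8 by −log10 p), grey points the others, and orange lines the median of a window; sites in a pair of windows appear in both. Absent peaks have the tied lowest score, as in all 3 GR-KO libraries at the black Hapln1 point.

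Hapln1, the link protein that ties lecticans to hyaluronan, held a site with a peak in GR-Con only. The site lies in its intron, 2627 bp from the start (chr13:89542223-89542623), and contains the GR element printed above. Its fold was 5.42, 6.09 and 6.42 in GR-Con 1 to 3, with a −log10 p of 18.0, 21.7 and 27.1, and no GR-KO library listed a peak that touched it. The nearest GR-KO summits were 780 to 791 bp away. The site was kept through its GR-Con peaks alone, and each GR-KO library was given the tied lowest score, so the size of the difference, −1.57 ± 0.20 (SE) by fold rank (adjusted p = 0.0406 in limma) and −1.50 ± 0.28 by −log10 p rank (adjusted p = 0.00795), was set in part by that score and describes the absence of a listed peak. Where a peak in all 6 libraries was required, the site was not tested, which left 0 sites lower by fold rank and 2 by −log10 p rank. By −log10 p rank the call was lost without any 1 GR-Con library (adjusted p = 0.0653 to 0.0839), and by fold rank with any 1 library of either condition left out (0.111 to 0.197).

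The remaining Hapln1 sites did not pass. At the promoter (chr13:89539103-89539503) the fold was 9.41, 8.27 and 5.61 in GR-Con and 7.92, 7.57 and 9.51 in GR-KO, so that the conditions overlapped. Of 30 sites in the Hapln1 window, 19 of them in the gene body, every GR-KO library was lower at 5 (16.7%, against 8.45% of all sites) and higher at 3 (10.0%, against 11%) by −log10 p rank, and by fold rank lower at 3 (10.0%, against 7.57%) and higher at 3 (10.0%, against 11.6%). The strongest site of the Hapln1 and the Vcan windows was the same, between both genes (chr13:89634140-89634540), with folds of 23.3, 24.8 and 22.0 in GR-Con and of 24.2, 20.6 and 21.9 in GR-KO (adjusted p = 0.706 in limma).

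Hapln4, the link protein of brain known from nets around fast-spiking neurons, had 36 sites and a promoter peak of middling strength (chr8:70083307-70083707). The fold was 5.26, 4.62 and 3.33 in GR-Con and 4.58, 5.19 and 3.86 in GR-KO, a difference of 0.11 ± 0.17 by fold rank (adjusted p = 0.853 in limma). All 36 sites also lie in the window of Ncan.

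Tnc, the tenascin of immature and injured tissue, had a promoter that gained rank in GR-KO. At chr4:64046791-64047191, which spans the start of the gene, the −log10 p was 45.9, 71.7 and 96.1 in GR-Con 1 to 3 and 122, 129.8 and 126 in GR-KO 1 to 3. The GR-Con libraries differed from each other by more than their highest did from GR-KO, but the conditions did not overlap. The difference was 0.37 ± 0.08 by −log10 p rank (adjusted p = 0.0210 in limma). The fold was 5.15, 6.62 and 7.34 against 9.19, 8.74 and 9.0, and by its rank the difference of 0.34 ± 0.10 did not pass (adjusted p = 0.236). The call by −log10 p rank held without GR-Con 3 (adjusted p = 0.0348) and was lost without GR-Con 1 (0.171), GR-Con 2 (0.175), GR-KO 1 (0.104), GR-KO 2 (0.139) or GR-KO 3 (0.132), and with a covering peak counted in place of a summit (0.113).

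Tnc also had more listed peaks in GR-KO, counted as summits, some of which can share an interval. Whether the added summits lie in separate intervals was not tested. Of 100000 peaks in a list, 16.2, 17.9 and 16.6 lay in its window in GR-Con and 21.2, 21.7 and 21.7 in GR-KO (30, 33 and 33 peaks against 38, 40 and 40). All 3 GR-KO libraries exceeded all 3 GR-Con libraries; the exact two-sided permutation p of 0.1 is the smallest that 3 against 3 libraries allow, and adjusted over the 9 genes it was 0.36. One weak site beyond the 3′ end (chr4:63957960-63958360) had a peak in each GR-KO and no GR-Con library, with a −log10 p of 3.56, 7.21 and 3.75, near the lower limit of the lists. At 8 of the 31 Tnc sites (25.8%, against 11% of all sites) every GR-KO library was higher by −log10 p rank, and at 1 (3.23%, against 8.45%) lower. The strongest Tnc site (chr4:63948038-63948438, intergenic) had folds of 19.3, 17.0 and 19.1 in GR-Con and 21.2, 19.9 and 21.6 in GR-KO and did not pass (adjusted p = 0.378 in limma).

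**Figure D2:**
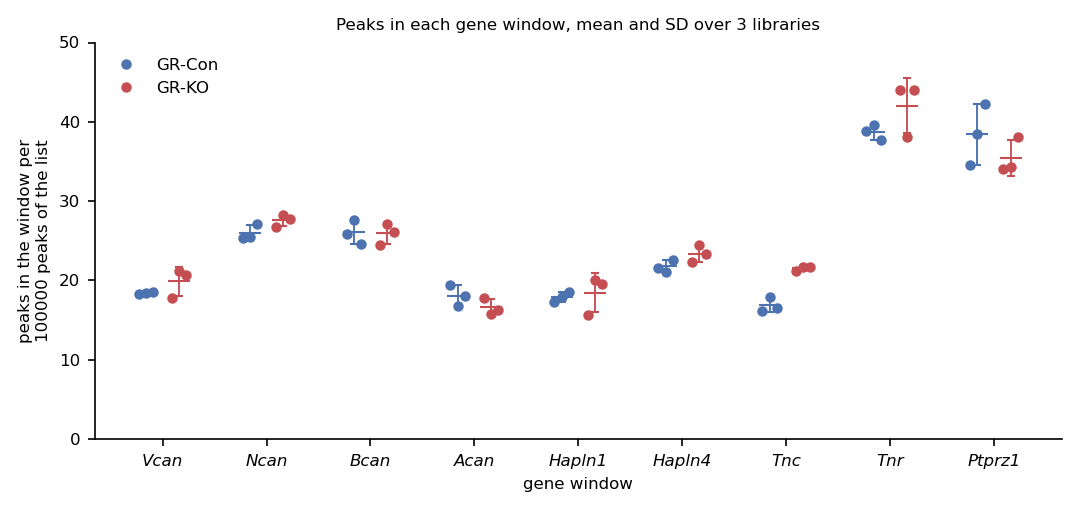
Peaks in each gene window per 100000 peaks of the same list (y axis) for the 9 genes (x axis), GR-Con in blue and GR-KO in red; points are libraries, dashes and bars the mean and SD of 3. For Tnc the GR-KO libraries lie at 21.2 to 21.7 and the GR-Con libraries at 16.2 to 17.9, while for the other 8 genes the conditions overlap.

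For the 8 genes other than Tnc, the exact p of the same comparison was 0.2 to 0.9. The 9 windows together held 183, 189 and 191 peaks per 100000 in GR-Con and 190.0, 191 and 199 in GR-KO, that is 188 ± 3.76 against 193 ± 4.89 (SD, n = 3; exact permutation p = 0.2). As plain counts, 340, 349 and 379 summits stood against 341, 351 and 366.

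Tnr, the tenascin of mature nets, is the longest gene of the group and had 71 sites, 65 of them in its body. It held 3 sites that rose by −log10 p rank (4.23%, against 0.76% of all sites) and 0 by fold rank. In the intron 27.5 kb from the start (chr1:159551054-159551454), the −log10 p was 22.1, 11.9 and 19.6 in GR-Con and 44.1, 40.2 and 42.6 in GR-KO, a difference of 0.49 ± 0.11 (adjusted p = 0.0335 in limma). The fold was 6.87, 4.89 and 6.09 against 8.97, 9.35 and 9.36. All GR-KO libraries were above all GR-Con libraries in both measures.

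At 4.4 kb before the start of Tnr (chr1:159519182-159519582, with the AP-1 letters TGAGTCA) the −log10 p was 62.4, 88.1 and 69.9 in GR-Con and 114, 107 and 119.9 in GR-KO (difference 0.28 ± 0.07, adjusted p = 0.0376 in limma). In the intron 342 kb from the start (chr1:159865593-159865993), it was 181, 211 and 161 against 261, 259 and 245 (0.25 ± 0.06, adjusted p = 0.0403). By fold rank none of the 3 Tnr sites passed (adjusted p = 0.133 to 0.229), and by −log10 p rank each was lost with any 1 library left out (0.0812 to 0.210) and with a covering peak in place of a summit (0.125 to 0.144).

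The Tnr promoter (chr1:159524054-159524454) did not pass by either rank. Its fold was 15.5, 14.7 and 14.7 in GR-Con and 10.8, 13.5 and 10.8 in GR-KO, with no overlap (difference −0.26 ± 0.08, adjusted p = 0.224 in limma). Its −log10 p overlapped, at 124, 134 and 145 in GR-Con and 91.1, 124 and 88.0 in GR-KO (adjusted p = 0.396). At 15 of the 71 Tnr sites (21.1%, against 11% of all sites) every GR-KO library was higher by −log10 p rank, and at 3 (4.23%, against 8.45%) lower. The strongest Tnr site, in an intron 109 kb from the start (chr1:159632576-159632976), had folds of 25.3, 23.1 and 20.5 in GR-Con and 21.6, 21.4 and 20.9 in GR-KO (adjusted p = 0.538).

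Ptprz1 encodes a receptor-type tyrosine phosphatase of glia that carries chondroitin sulfate, binds tenascins and is also secreted as phosphacan. Of its 59 sites, 1 fell (1.69%, against 0.835% of all sites) and 1 rose (1.69%, against 0.76%) by −log10 p rank, and 0 passed by fold rank. The site that fell lies in an intron 44.2 kb from the start (chr6:22919546-22919946). Its −log10 p was 173, 151 and 111 in GR-Con and 82.9, 39.7 and 35.8 in GR-KO, and its fold was 14.6, 12.7 and 11.2 against 10.7, 6.75 and 6.60. GR-KO 1 lay nearest to the controls, yet the conditions did not overlap.

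The difference at that Ptprz1 intron was −0.53 ± 0.09 by −log10 p rank (adjusted p = 0.00442 in limma) and −0.43 ± 0.12 by fold rank (adjusted p = 0.192). By −log10 p rank it passed without GR-KO 1 (0.00242) and was lost without GR-Con 1 (0.170), GR-Con 2 (0.155), GR-Con 3 (0.0504), GR-KO 2 (0.0805) or GR-KO 3 (0.0703), and with a covering peak in place of a summit (0.185). The site that rose, 41.7 kb upstream (chr6:22833628-22834028), had a −log10 p of 137, 140.4 and 153 in GR-Con and 193, 231 and 181 in GR-KO (0.24 ± 0.06, adjusted p = 0.0430). Its fold differed little, 13.5, 13.1 and 12.5 against 14.1, 15.6 and 13.6 (adjusted p = 0.452), and the call by −log10 p rank was lost with any 1 library left out (0.103 to 0.213) and with a covering peak (0.102).

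The Ptprz1 promoter (chr6:22875270-22875670) was among the strongest of the group. The fold was 10.1, 9.96 and 9.60 in GR-Con and 12.1, 11.6 and 11.1 in GR-KO, all above, and did not pass (difference 0.18 ± 0.06, adjusted p = 0.309 in limma). A further site in the intron of the neighbour Aass (chr6:23106242-23106642) had a −log10 p of 10.4, 13.5 and 17.9 in GR-Con, of 2.59 in GR-KO 1 and no peak in GR-KO 2 and 3 (adjusted p = 0.0759 by −log10 p rank in limma). GR-KO 2 and 3 took the tied lowest score there, which set part of the difference.

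**Figure D3:**
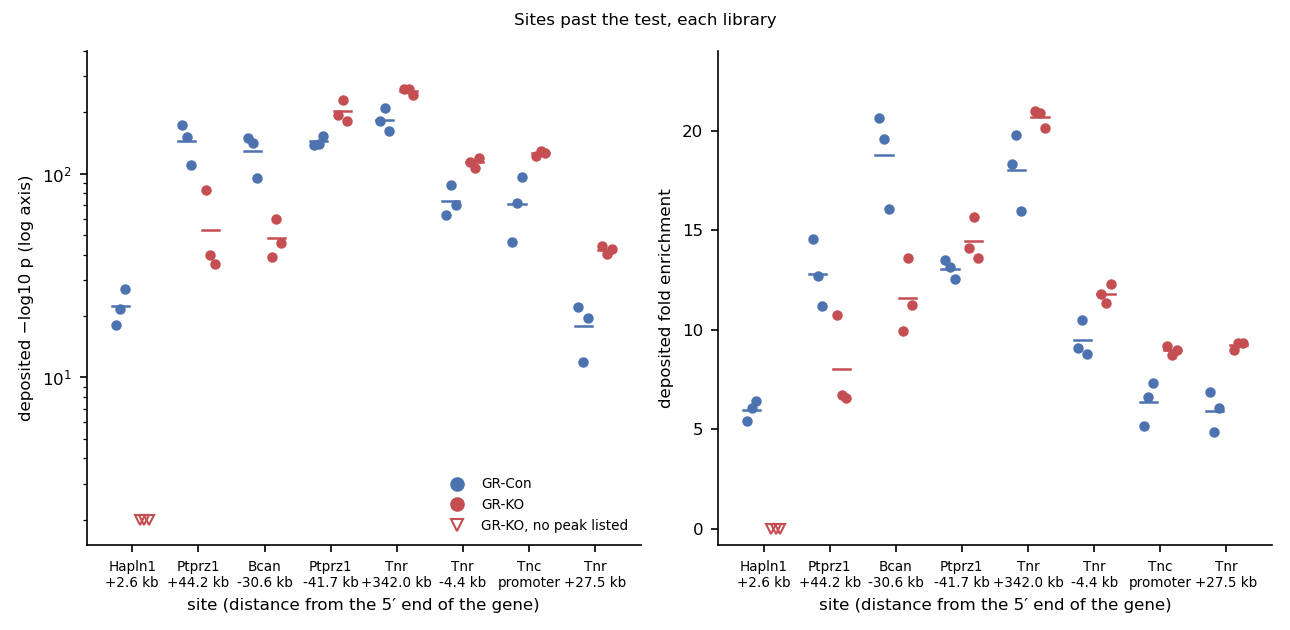
Deposited −log10 p (left, log axis) and fold (right) in each library at the 8 sites past the test by −log10 p rank (x axis, with the distance from the 5′ end of the gene); blue is GR-Con, red GR-KO, horizontal dashes are means of 3 libraries. Open triangles, drawn at 2 on the left and at 0 on the right, mark GR-KO libraries with no peak at the Hapln1 intron; at the other 7 sites both conditions have peaks and do not overlap by −log10 p.

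Bcan, the lectican made by astrocytes and oligodendrocyte precursors, had 40 sites in its window, 3 of them in the gene. The site that fell lies 30.6 kb upstream (chr3:88030603-88031003), within 1 kb of the start of the unconfirmed transcript Gm19439 and also in the window of Hapln2. Its fold was 20.6, 19.6 and 16.0 in GR-Con and 9.93, 13.6 and 11.2 in GR-KO, and its −log10 p was 150.4, 142 and 94.7 against 38.9, 60.1 and 45.5. No GR-KO library reached the lowest GR-Con library.

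The difference was −0.47 ± 0.08 by −log10 p rank (adjusted p = 0.00296 in limma) and −0.60 ± 0.11 by fold rank (adjusted p = 0.0736). By −log10 p rank it passed without GR-Con 3 (0.0135) or any 1 GR-KO library (0.0155 to 0.0435) and was lost without GR-Con 1 (0.127) or GR-Con 2 (0.123), and with a peak covering the site counted in place of a summit (0.112). The Bcan promoter (chr3:88000187-88000587) had folds of 5.43, 5.58 and 5.26 in GR-Con and 6.14, 5.79 and 5.93 in GR-KO (adjusted p = 0.639 by fold rank in limma), with a −log10 p of 167, 178 and 162 against 192, 188 and 192 (adjusted p = 0.418 by −log10 p rank), and did not pass by either rank. Its fold was thus modest beside its −log10 p. The strongest site of the Bcan window was the promoter of the neighbour Gpatch4 (fold 25.6 to 29.8).

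Ncan, a lectican of astrocytes and neurons that is most abundant in the young brain, had the strongest promoter of the 9 genes by −log10 p. At chr8:70120665-70121065 the fold was 10.8, 12 and 11.6 in GR-Con and 12.8, 10.6 and 11.2 in GR-KO, overlapping throughout (difference 0.02 ± 0.07, adjusted p = 0.940 in limma). The smallest p of its 42 sites was in its intron (chr8:70104477-70104877), with folds of 6.38, 5.31 and 4.45 in GR-Con and 3.46, 3.04 and 3.36 in GR-KO (adjusted p = 0.258). The strongest site of the window, the promoter of the neighbour Tmem161a, had folds of 30.1 to 32.4 in all 6 libraries.

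Vcan had a weak promoter peak (chr13:89742283-89742683). The fold was 2.52, 2.34 and 3.56 in GR-Con and 3.34, 3.00 and 3.60 in GR-KO, so that GR-Con 3 lay with the GR-KO libraries (difference 0.28 ± 0.23, adjusted p = 0.668 in limma). Among its 29 sites, 21 of which had a peak in all libraries, the smallest p was at a site in the Hapln1 intron (chr13:89563038-89563438), where the fold was 11.1, 10.3 and 11.2 against 13.1, 14.0 and 14.9. Every GR-KO library was higher, but neither rank passed (adjusted p = 0.167 by fold and 0.0581 by −log10 p rank in limma; 0.0662 to 0.248 by the latter with any 1 library left out).

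Acan, the lectican that defines most perineuronal nets and is made chiefly by neurons, had the weakest promoter. At chr7:79053049-79053449 the −log10 p was 4.36, 6.14 and 4.79 in GR-Con, 3.06 in GR-KO 1, and no summit was listed in GR-KO 2 and GR-KO 3 (adjusted p = 0.537 in limma); its direction turned when a covering peak counted in place of a summit (difference 0.0677). A site in the Acan intron 5268 bp from the start (chr7:79058551-79058951) had folds of 5.48, 4.33 and 3.72 in GR-Con and no peak in GR-KO (adjusted p = 0.0757 by fold and 0.0848 by −log10 p rank). A site 99.4 kb upstream (chr7:78953908-78954308) showed the same pattern with folds of 3.02, 5.83 and 2.87. Neither passed the test. Both sites were kept through their GR-Con peaks alone, and each GR-KO library had the tied lowest score, which set part of their differences.

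In the other direction, an intergenic site beyond Acan (chr7:79159447-79159847) had folds of 15.9, 15.2 and 12.2 in GR-Con and 19.9, 18.6 and 19.6 in GR-KO, without overlap (difference 0.45 ± 0.08, adjusted p = 0.0756 by fold rank and 0.0600 by −log10 p rank in limma). At 7 of the 30 Acan sites (23.3%, against 11% of all sites) every GR-KO library was higher by −log10 p rank, and at 4 (13.3%, against 8.45%) lower; by fold rank these were 9 (30.0%, against 11.6%) and 4 (13.3%, against 7.57%). The strongest Acan site, in its intron (chr7:79080766-79081166), had folds of 20.6 to 21.2 in GR-Con and 21.6 to 23.2 in GR-KO (adjusted p = 0.487).

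By the percentile of −log10 p within a list, averaged over all 6 libraries, the promoters ranked Ncan (92.3 ± 1.36, SD), Ptprz1 (90.8 ± 1.17), Bcan (90.6 ± 0.868), Tnr (85.1 ± 2.75), Tnc (81.5 ± 6.77), Hapln1 (63.9 ± 5.47), Hapln4 (53.4 ± 6.88), Vcan (49.6 ± 12.8) and Acan (8.10 ± 8.43, with an absent peak set to 0). The ranges of neighbours in this order overlapped, except between Bcan and Tnr and between Vcan and Acan. A percentile reflects accessibility of a promoter and its local background, not the level of a transcript. The order differed between the conditions at 2 places. The Tnc promoter stood at 76.8 ± 6.73 in GR-Con and 86.3 ± 0.697 in GR-KO, and the Tnr promoter at 86.9 ± 1.59 and 83.2 ± 2.46 (n = 3 each). The Vcan promoter stood at 43.2 ± 16.3 in GR-Con and 55.9 ± 5.07 in GR-KO, and the Hapln4 promoter at 51.3 ± 8.04 and 55.5 ± 6.36, a gap in GR-KO smaller than either SD. By the mean percentile of fold over all 6 libraries the order was another one: Tnr (85.1), Ncan (81.4), Ptprz1 (79.4), Hapln1 (70.2), Tnc (68.2), Bcan (58.3), Hapln4 (46.3), Vcan (24.4) and Acan (13.1).

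**Figure D4:**
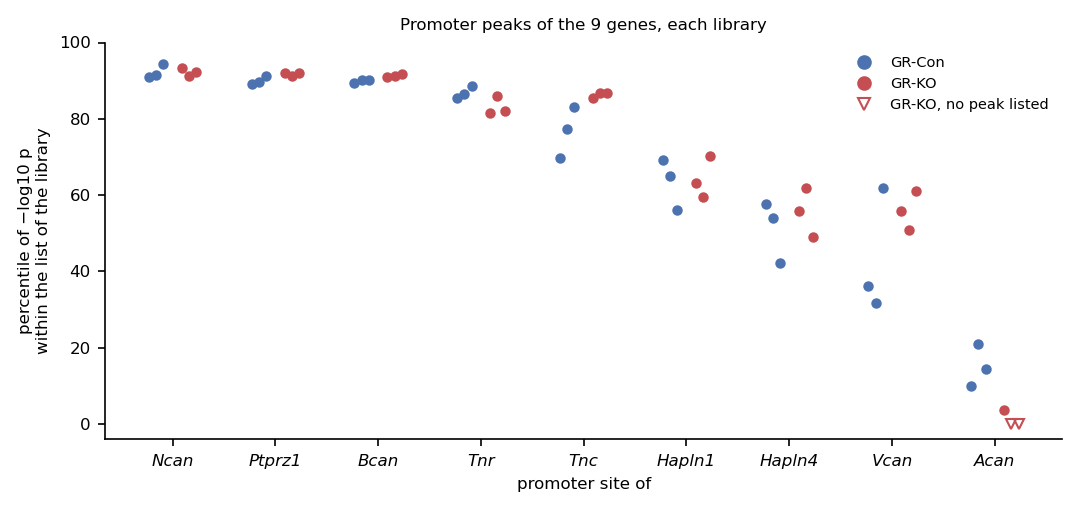
Percentile of −log10 p within the list of each library (y axis) at the promoter site of each gene (x axis, in order of the mean); blue points are GR-Con and red points GR-KO libraries, and open triangles at 0 mark GR-KO libraries with no summit. Ncan, Ptprz1 and Bcan lie near 90 in each library, Tnc is higher in GR-KO, and Acan is lowest.

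By position, 55.0% of the 311 sites lay in introns (48.2% of all sites), 19.6% within 1 kb of a start (19.2%), 4.50% in other exons (4.11%) and 20.9% between genes (28.5%). Their median GC content was 47.9%, against 49.1%.

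Of 18 partner genes of the same matrix (hyaluronan synthases, enzymes of chondroitin sulfate synthesis, ligands and receptors), 767 sites were measured, 61 of which also belong to a window above. By −log10 p rank 15 fell (1.96%, against 0.835% of all sites) and 11 rose (1.43%, against 0.76%), and by fold rank 1 fell (0.13%, against 0.127%) and 1 rose (0.13%, against 0.0609%). Cntn1, a contactin that binds Ptprz1 and Tnr, had 5 of its 31 sites lower (16.1%, against 0.835% of all sites) and 0 higher (against 0.76%) by −log10 p rank, and 0 in either direction by fold rank. At 2 Cntn1 sites all GR-Con libraries and no GR-KO library had a peak, so that GR-KO took the tied lowest score. Ptn, the growth factor pleiotrophin that binds Ptprz1, had 5 of its 55 sites higher (9.09%, against 0.76% of all sites) and 0 lower (against 0.835%) by −log10 p rank, and 1 higher by fold rank (0.0609% of all sites were). Xylt1, which starts the chondroitin sulfate chain, had 2 of 84 in each direction by −log10 p rank (4.76% together, against 0.835% lower and 0.76% higher of all sites). By fold rank 1 Xylt1 site was lower (0.127% of all sites were). Hapln2 had the site upstream of Bcan described above. Cntn1, Ptn and Xylt1 had the most calls of the 18 by −log10 p rank, and the alternatives below are given for the 9 genes only. Of the 104 sites of Has1, Hapln3, Chsy1 and Chsy3, 0 passed in limma by either rank, with 13 at an unadjusted p under 0.05 by −log10 p rank (12.5%, against 13.4% of all sites) and 11 by fold rank (10.6%, against 12.1%).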

How the data were processed

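ATAC-seq peak lists of 6 libraries of astrocyte nuclei were used, 3 GR-KO and 3 GR-Con. The authors used version 2.2.0 of ENCODE's ATAC-seq workflow (multimapping 0, peak p threshold 0.01) and called peaks per library; the submitters' notes name mm10. Each deposited peak has a capped score, a fold (a ratio over local background), a −log10 p-value, a −log10 q-value and a summit offset, deposited without counts. Because 44.1 to 51.0% of peaks share an interval with another summit, sites were assigned by summit: summits were taken in order of within-list fold percentile, extended 200 bp to each side without overlap, and kept with a summit in at least 2 libraries. Ranks (absent peaks tied lowest) became normal scores, tested with limma 3.58.1 in R 4.3.3 (variance trend, no block, Benjamini-Hochberg over all sites), after a test on simulated data. The study's count test could not be used. Genes are from GENCODE M21 and sequences from GRCm38.p6, RefSeq. Named for each gene were its promoter site, its strongest site, the site of smallest p by each rank, each site past the threshold and each site present in one condition only. Genes, lists and motifs were chosen with earlier results of these data known. Alternatives were a covering peak, site order, stricter peaks, list length, 3 or all 6 libraries, narrower windows, no variance trend, each library left out, and a replicate block. 0 of 1116429 peaks ended beyond a chromosome of GRCm38.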

Additional observations from a re-analysis of the deposited data

How the results depend on the processing

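The number of sites, 311, became 186 where a peak in all 6 libraries was required and 181 with windows of 2 kb. Sites lower by fold rank (1) became 0 with a peak in all 6 libraries, at an adjusted p under 0.01, and, with any 1 library left out, 0 to 0; there were 3 with no variance trend. Sites lower by −log10 p rank (3) became 1 with a covering peak and 0 to 3 with each library left out, with 0 without GR-Con 1 or GR-Con 2. Sites higher by −log10 p rank (5) became 0 with a covering peak, with no variance trend or at an adjusted p under 0.01, 3 with windows of 2 kb, 8 with a peak in all 6 libraries, and 0 to 1 with each library left out. With a covering peak, 7 of the 8 sites did not pass (adjusted p = 0.102 to 0.185 in limma); the remaining one, the Hapln1 intron, has no GR-KO peak under either rule. Sites with a peak in GR-Con only (3) became 6 at a q-value of 0.01 or less and 4 to 7 with each library left out; those in GR-KO only (1) became 0 with a covering peak or at that q-value, and 2 to 7. Peaks in the 9 windows, 5.57 per 100000 more in GR-KO, were 3.33 fewer as plain counts (−3.33 peaks).

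The direction turned with a covering peak at the Acan promoter (0.0406 by fold and 0.0677 by −log10 p rank) and, with each library left out, at sites that did not pass: the Hapln1 promoter (−0.000369 to 0.21 by fold, −0.0513 to 0.14 by −log10 p rank), the Gpatch4 promoter near Bcan (−0.23 to 0.0350 by fold), the strongest Ptprz1 site (−0.0664 to 0.00202 by fold, −0.16 to 0.0402 by −log10 p), the Hapln4 promoter (−0.0333 to 0.23 by fold), the Ncan promoter (−0.0211 to 0.0660 by fold, −0.0301 to 0.0805 by −log10 p) and the Tmem161a promoter (−0.13 to 0.0934 by fold). Of 650 values of named sites under alternatives, 572 kept direction and side of the threshold, 58 lost the call, 1 gained it and 19 turned. The cause was not tested.

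The deviations of same-numbered libraries had correlations across sites of −0.00693 to 0.0304, and those of other pairs −0.0340 to 0.00958. Numbers 1 and 3 gave the highest values by either rank. All were small, and whether the numbers pair samples cannot be told from them. With a replicate block, sites lower by fold rank became 0 of 1 and higher by −log10 p rank 0 of 5, and 3 were lower by −log10 p rank. Depth could not be assessed, so an absent peak means only that none was called at p 0.01.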
